A study of Glycine max with 32 samples.

Results

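The 200 soybean genes described here were those whose mean level in WT leaves fell most between the vegetative stage V4–V5 and the reproductive stage R5–R6. They were selected on the 16 WT libraries alone, by the log2 ratio of the mean R5–R6 value to the mean V4–V5 value. Values were CPM (the count of a gene as a share of the total of its library, scaled to 1e+06), and 0.5 was added to both means. Genes needed a mean of 10 CPM or more at V4–V5 in WT, which 14468 of the 52872 soybean genes in the table reached, and the 200 lowest ratios were taken. The WT stage values are therefore a description. The 16 libraries of the transgenic line VPZ-34A took no part in the choice, and the stage effect was tested in them. They shared the rings and sampling months of the WT libraries, so this test repeats the same contrast of stage and date.

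A soybean leaf sampled at V4–V5 comes from a vegetative plant that is still adding nodes and expanding leaves. At R5–R6 the seeds of the plant are filling, growth of new leaves has slowed or ended, and nitrogen and carbon move from the leaves to the pods. Genes for cell division, wall building and surface lipids are generally most active in young leaf tissue and low in mature and ageing leaves. Per the methods of the study, the leaf sampled was the youngest fully expanded one at both stages.

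VPZ-34A is a single transformation event that overexpresses the Arabidopsis genes AtVDE, AtPsbS and AtZEP, which act in the xanthophyll cycle and in the dissipation of excess light, and WT is the line without the transgenes. Both lines grew side by side in 8 field rings, 4 fumigated to e[CO2] (600 µmol mol-1) and 4 left at a[CO2] (410 µmol mol-1). In each ring each line was sampled at both stages, which gave 8 groups of 4 libraries, VPZ-34A and WT at R5–R6 and V4–V5 under e[CO2] and a[CO2]. Rings 3, 5, 6 and 8 had e[CO2], rings 1, 2, 4 and 7 had a[CO2], and the leaf disks of several plants of a plot were pooled. The labels call the later stage R6, and the methods of the study R5–R6. All V4–V5 libraries were labelled July and all R5–R6 libraries September, so that stage, plant age and sampling date cannot be told apart.

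Library totals ranged from 16091207 to 63132399 counts (median 20437366), so that 3 counts, the floor used for an unseen gene, were 0.0475 to 0.186 CPM in a library. These floors, and the intervals below, cover counting error only. The annotated chlorophyll a/b-binding gene Glyma.20G150600, a leaf antenna protein, had at least 1899 CPM in all 32 libraries, Glyma.10G243800 of the same family at least 971 CPM, and Glyma.19G261400, also of it, 0.111 to 17.2 CPM. For the 200 genes, the WT libraries of rings 7 and 5 at V4–V5 stood apart, with 10 and 25 of the 200 above their mean over the 8 WT libraries of that stage. When ring 7 or ring 5 was left out of the selection, 192 and 188 of the 200 genes were chosen again.

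In WT the log2 ratio was −10.05 for the first gene, Glyma.15G238600, and −3.21 for the last. It had a median of −4.15. Just inside the limit were Glyma.10G245400, Glyma.01G171900, Glyma.13G267851, Glyma.08G022000 and Glyma.08G080700, between −3.23 and −3.21. Just outside it were Glyma.03G257000, Glyma.20G141200, Glyma.06G119400, Glyma.02G150700 and Glyma.01G121700, between −3.20 and −3.19. Genes on both sides of the limit had much the same ratio, so the 200 are the end of a continuous ranking and not a separate class. The 200 were found on all 20 chromosomes, with 3 on chromosome 3 and 16 on chromosome 8.

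All 200 genes fell in VPZ-34A, the line that had no part in choosing them. In VPZ-34A the log2FC of R5–R6 against V4–V5 ranged from −14.28 to −3.0, with a median of −5.29, against a median of 0.01 over all 34786 genes tested. Past an adjusted p of 0.05 in edgeR's quasi-likelihood test were 200 of 200, where 32.8% of all genes tested were lower at R5–R6. With a log2FC under −1 there were again 200, against 18.3% of all genes. The highest adjusted p of the 200 was 0.00128. In 198 of the 200, all 8 R5–R6 libraries lay under all 8 V4–V5 libraries, and 12.7% of all genes tested did so. The exceptions were Glyma.14G085600 and Glyma.15G217100, in which the R5–R6 library of ring 7 reached the V4–V5 range. Comparing the stages within each ring, all 200 were lower at R5–R6 in 8 of 8 rings. CPM on column totals shifted the median gene by 0.28 on the log2 scale, and the TMM scaling of the test by 0.01.

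**Figure D1:**
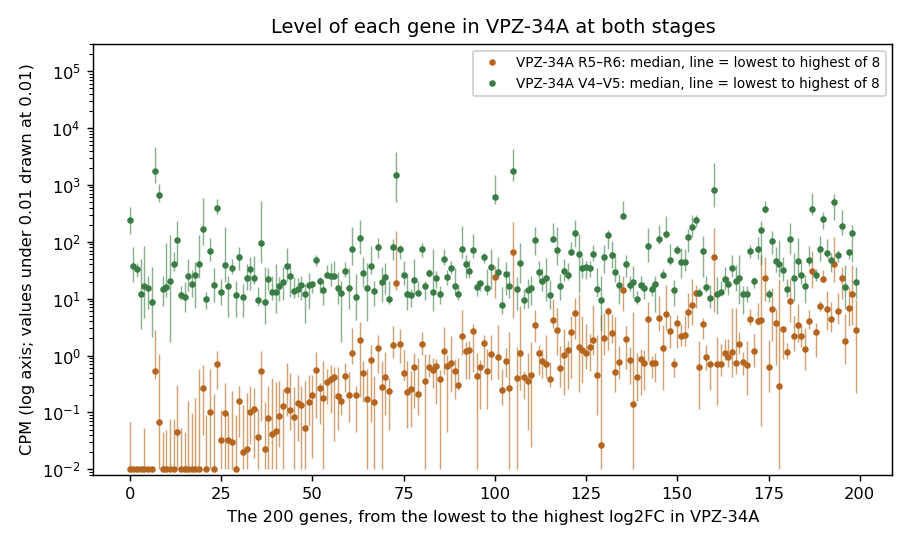
Level of each of the 200 genes in the 8 VPZ-34A libraries at R5–R6 and the 8 at V4–V5, in CPM on a log axis, with dots for medians and lines from the lowest to the highest library (values under 0.01 CPM drawn at 0.01). Genes run from the lowest to the highest log2FC, and the stages are apart in 198 of the 200.

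Together the 200 genes had 356 to 1148 CPM in VPZ-34A at R5–R6 (median 677), against 13273 to 26039 CPM at V4–V5 (median 17636). They made up 0.0685% of the counts of a VPZ-34A library at R5–R6 on average, against 1.92% at V4–V5. In WT the sum was 280 to 848 CPM at R5–R6 and 10171 to 21862 CPM at V4–V5. Neither line had a library at R5–R6 near the V4–V5 range. The sum was uneven over the genes. In VPZ-34A at V4–V5 the most abundant gene, Glyma.15G238600, held 11.6% of it, the first 4 genes held 37.5% and the first 10 held 53.9%.

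**Figure D2:**
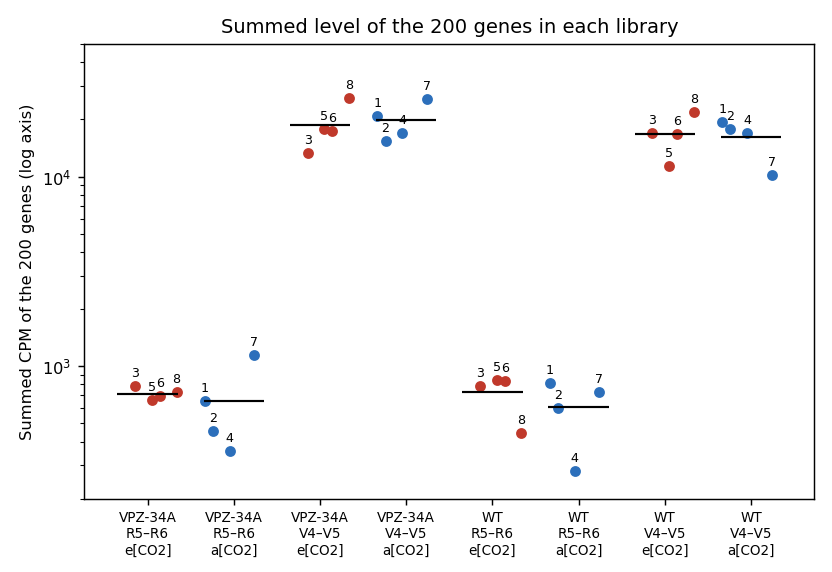
Summed CPM of the 200 genes in each of the 32 libraries on a log axis, with the ring number above each point, the mean of 4 libraries as a bar, e[CO2] in red and a[CO2] in blue. The R5–R6 libraries sit between 280 and 1148 CPM, all below the V4–V5 libraries at 10171 to 26039 CPM.

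Glyma.15G238600 had the lowest ratio in WT and the highest V4–V5 level in VPZ-34A. The files and the study's tables give it no annotation. In VPZ-34A it had 0.387 to 2.80 CPM at R5–R6 (median 0.530), against 1065 to 4723 CPM at V4–V5 (median 1740). Its log2FC was −11.53 (standard error 0.62, adjusted p = 3.3e-10). At V4–V5 it was highest in rings 7 (4723 CPM) and 8 (3815 CPM) of VPZ-34A, while the other 6 rings had 1065 to 1831 CPM. In WT the ring 8 library was again the highest of its stage, with 2908 CPM, but the ring 7 library was the lowest, with 718 CPM.

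Glyma.14G115500 and Glyma.17G212200 were next in the WT ranking, and both are without annotation. Glyma.14G115500 had 0 to 1.06 CPM at R5–R6 in VPZ-34A (median 0.0671), against 493 to 1027 CPM at V4–V5 (median 656), a log2FC of −11.34 (standard error 0.68, adjusted p = 9.2e-10). Glyma.17G212200 had 0 to 0.0669 CPM at R5–R6, with no count in 4 of the 8 libraries, against 138 to 404 CPM at V4–V5. Its log2FC of −14.28 was the lowest fitted value, while genes without a count at R5–R6 have only a bound. It rested on 4 counts at R5–R6, against 57394 at V4–V5, over the 8 libraries of each stage. The other genes with the 10 lowest ratios in WT were Glyma.10G094600, Glyma.16G165800, Glyma.08G069300, Glyma.14G126200, Glyma.16G165200 and Glyma.09G218100, with a log2FC of −10.81 to −8.24 in VPZ-34A, and Glyma.17G208200, which had no count at R5–R6 there.

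No count was recorded at R5–R6 in any of the 8 VPZ-34A libraries for 5 of the 200 genes. For Glyma.17G208200 the V4–V5 libraries had 19.9 to 81.5 CPM, so that its mean was at least 2817-fold lower at R5–R6, with the floor of 3 counts taken over the 8 libraries together. On the same floor Glyma.10G200800 was at least 2529-fold lower, with 24.2 to 42.9 CPM at V4–V5. Glyma.19G250167 was at least 1269-fold lower, Glyma.15G051900 at least 1194-fold and Glyma.19G250233 at least 931-fold. The fitted log2FC of such genes depends on the prior count and is not given, and the median of the 200 stayed at −5.29 with the 5 genes set at their bound. A further 5 genes had 1 or 2 counts over the 8 libraries. For Glyma.03G252700, with 1 count at R5–R6 and 5998 at V4–V5, the ratio of V4–V5 to R5–R6 was 6065 (exact 95% interval 1088 to 239569), and for Glyma.11G160000, with 1 and 3286 counts, it was 3323 (596 to 131265). In WT, 3 of the 200 genes had no count at R5–R6, Glyma.15G051900, Glyma.19G250233 and Glyma.15G089100.

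The loss was not complete in most of the 200. In VPZ-34A at R5–R6 the mean was under 0.1 CPM in 29 genes, from 0.1 to under 1 CPM in 86, from 1 to under 10 CPM in 70 and 10 CPM or more in 15. The corresponding numbers in WT were 28, 83, 76 and 13. The genes of high V4–V5 level supplied most of those that remained visible at R5–R6. Glyma.04G065600 had 4.54 to 220 CPM at R5–R6 in VPZ-34A (median 65.4), against 1165 to 4189 CPM at V4–V5 (median 1774), with a log2FC of −5.20 (standard error 0.76, adjusted p = 1.7e-05). Glyma.06G067000 had 5.72 to 173 CPM at R5–R6 (median 54.0), against 407 to 2398 CPM at V4–V5 (median 797). Glyma.20G247850 had 13.9 to 153 CPM at R5–R6 (median 19.1), against 499 to 3758 CPM at V4–V5 (median 1466). In all 3 genes the VPZ-34A library of ring 7 was the highest at both stages, and without ring 7 the number of the 200 that fell was unchanged. The remaining genes among the 10 most abundant at V4–V5, Glyma.02G305400, Glyma.13G267851, Glyma.11G181100, Glyma.10G094600 and Glyma.12G169400 beside those named above, had medians of 381 to 600 CPM at that stage.

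The shallowest falls in VPZ-34A were those of Glyma.09G036900 (log2FC −3.0, standard error 0.40, adjusted p = 6.2e-06), Glyma.08G138200 (−3.16), Glyma.16G173500 (−3.25), Glyma.17G140400 (−3.32) and Glyma.14G086300 (−3.45). Glyma.08G138200 had 3.40 to 38.9 CPM at R5–R6 (median 12.2), against 43.7 to 194 CPM at V4–V5 (median 140), and its stages came close without meeting. When the ranking rule was run on VPZ-34A in place of WT, it took 170 of the 200 genes again (85% of each list). A further 28 were ranked after place 200, down to place 454 of 14476, which was Glyma.09G036900. The other 2, Glyma.01G018100 and Glyma.08G297000, had means under 10 CPM at V4–V5 in VPZ-34A.

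Only 5 of the 200 genes are annotated in the study's tables, each through an Arabidopsis gene. Glyma.02G308700 matches FLA2, a fasciclin-like arabinogalactan protein, a glycoprotein of the cell surface and wall. It had 0.0685 to 1.52 CPM at R5–R6 in VPZ-34A (median 0.830), against 26.9 to 82.9 CPM at V4–V5 (median 37.1), a log2FC of −6.38 (standard error 0.31, adjusted p = 1.3e-10). Glyma.01G170200 matches BGAL3, a beta-galactosidase, an enzyme that removes galactose from polysaccharides. It had 0.483 to 2.28 CPM at R5–R6 (median 1.38), against 51.2 to 119 CPM at V4–V5 (median 80.9), a log2FC of −6.28 (standard error 0.33). Glyma.17G044500 belongs to the invertase and pectin methylesterase inhibitor superfamily, which holds inhibitors of invertases and of pectin methylesterases and also pectin methylesterases with an inhibitor-like domain, and the description does not tell which of these it is. It had 0.808 to 8.83 CPM at R5–R6 (median 4.31), against 44.96 to 175 CPM at V4–V5 (median 83.8), a log2FC of −4.72 (standard error 0.35).

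Glyma.13G231300 encodes a GDSL-like lipase/acylhydrolase, of a family of ester-cleaving enzymes. It had 1.65 to 5.33 CPM at R5–R6 in VPZ-34A (median 2.53), against 34.4 to 104 CPM at V4–V5 (median 57.5), a log2FC of −4.84 (standard error 0.32). The remaining annotated gene, Glyma.16G018900, encodes a subtilisin-like serine endopeptidase, a protease. It had 3.82 to 21.9 CPM at R5–R6 (median 9.06), against 60.9 to 213 CPM at V4–V5 (median 112), a log2FC of −3.96 (standard error 0.29). The 5 annotated genes were apart between the stages in every VPZ-34A library. They cannot stand for the other 195, since the tables that annotate them hold genes the study chose for CO2 or line effects in these same samples.

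Within those tables, genes were also counted by keywords in their descriptions, which do not establish what a gene does. Of 8 tested genes described as acting in cell wall growth, Glyma.02G308700 included, 5 fell in VPZ-34A and 2 rose, with a median log2FC of −1.47. Of 7 genes matched by keywords for cuticle and surface lipids, 5 fell and 0 rose, with a median of −1.28. Glyma.13G231300 was among them through the family name GDSL alone, and no role in the cuticle was shown for it. Of 6 genes for the cell cycle and DNA replication 5 fell and 0 rose (median −2.15). Of 5 genes for the photosynthetic apparatus 2 fell and 0 rose (median −0.43). Of 7 ribosomal protein genes 3 fell and 1 rose, of 18 transporter genes 8 fell and 5 rose, and of 44 transcription factor genes 12 fell and 12 rose. Of 12 genes of growth hormones 5 fell and 5 rose, and of 11 defence and storage protein genes 2 fell and 5 rose. These lists are small and their genes were chosen by the study on these libraries, so the counts are not independent evidence of a direction, and 32.8% of all genes tested fell.

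Some of the 200 lay next to each other. In the order of the gene identifiers, 28 genes formed 13 runs in which neighbours were at most 5 gene models apart. The longest run held Glyma.16G165200, Glyma.16G165500, Glyma.16G165800 and Glyma.16G165900 on chromosome 16, with a log2FC of −9.85 to −4.62 in VPZ-34A. Glyma.16G165800 had 0.0396 to 0.679 CPM at R5–R6, against 89.2 to 577 CPM at V4–V5, and Glyma.16G165900 had 1.37 to 5.07 CPM at R5–R6, against 60.0 to 86.6 CPM at V4–V5. The level that remained thus differed within the run. Glyma.16G165200, Glyma.16G165500 and Glyma.16G165800 were highest at V4–V5 in ring 1 in both lines, and Glyma.16G165900 was not. In this run 65.6% to 87.1% of the nonzero values of a gene were more than 0.001 from a whole number. This shows that some reads had several alignments and were shared. The values do not tell with which genes, so the level of each of the 4 genes is uncertain. Glyma.19G250167 and Glyma.19G250233 on chromosome 19, both without a count at R5–R6 in VPZ-34A, formed another run. Of their nonzero values 70.6% and 37.5% were not whole, so their levels are uncertain in the same way. Over the 200 genes the median share of values that were not whole was 31.2%. The 40 genes above 50% had a median log2FC of −5.45 in VPZ-34A, and the 19 genes with whole values alone had −5.71.

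The 200 genes varied more between rings than other genes of the ranking did. The median coefficient of variation over the 8 VPZ-34A libraries was 61.3% at R5–R6 for the 195 genes with a count, against 18.7% for all ranked genes, and 34.8% at V4–V5, against 16.2%. In WT it was 62.9% against 17.4% at R5–R6, and 34.7% against 14.3% at V4–V5. Many of the 200 were near the floor at R5–R6, where counting error adds to this spread, and the ranked genes were not matched for level. The median gene fell by 3.81 (ring 3) to 4.7 (ring 4) on the log2(CPM + 0.5) scale within the VPZ-34A rings. The median fall in WT was 3.31 (ring 7) to 4.83 (ring 4).

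At R5–R6, ring 4 had the lowest sum in both lines, with 356 CPM in VPZ-34A and 280 CPM in WT, and 27 and 29 of the 200 genes were above their mean over the 8 rings there. These were also the deepest libraries of the stage, with 63132399 counts in VPZ-34A and 43341836 in WT, and the part of depth in the result was not tested. Ring 7 had the highest sum in VPZ-34A, with 1148 CPM, but 97 of the 200 genes were above their mean in it, so that the excess came from a part of the genes. Among these were Glyma.14G085600, with 59.0 CPM in ring 7 and 0.0567 to 9.91 CPM in the other 7 VPZ-34A libraries, and Glyma.06G084200, with 22.1 CPM in ring 7 and 0 to 3.48 CPM elsewhere. In WT the ring 7 library was also the highest at R5–R6 for both genes, with 41.0 and 7.42 CPM. For Glyma.06G084200 the fall was not past the threshold in the a[CO2] rings of VPZ-34A alone (log2FC −2.78, adjusted p = 0.0679), and it was the only one of the 200 for which this was so.

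At V4–V5 the order of the rings differed between the lines. Ring 8 had the highest sum in both, with 26039 CPM in VPZ-34A and 21862 CPM in WT. Ring 7 was next in VPZ-34A (25679 CPM) and lowest in WT (10171 CPM), and ring 3 was lowest in VPZ-34A (13273 CPM). The high sum of ring 7 in VPZ-34A came from a part of the genes, since 78 of the 200 were above their mean there (median deviation −0.14). The highest ring of a gene was the same in both lines for 42 of the 194 genes with 1 highest ring in each line at R5–R6 (21.6%) and for 55 of 200 at V4–V5 (27.5%), where all ranked genes gave 25.8% and 28.7%.

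**Figure D3:**
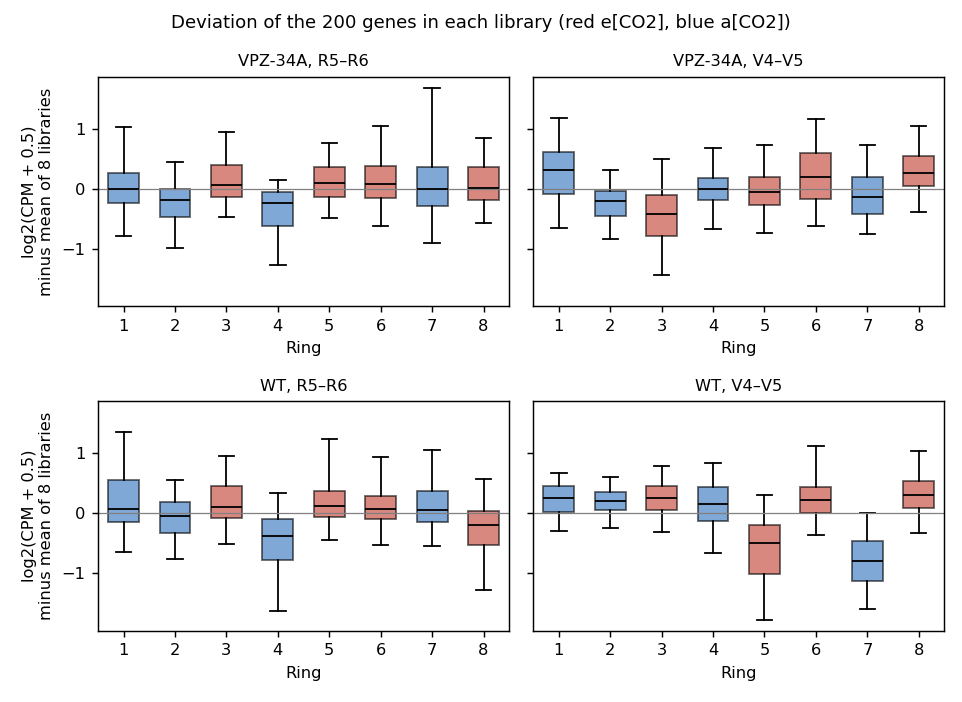
Deviation of the 200 genes in each library from their mean over the 8 libraries of the same line and stage, on the log2(CPM + 0.5) scale, by ring. Boxes give the quartiles with the median, whiskers the 5th and 95th percentiles, in red for e[CO2] and blue for a[CO2], and the libraries with the lowest medians are those of WT rings 7 and 5 and VPZ-34A ring 3 at V4–V5 and of ring 4 in both lines at R5–R6.

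The next comparison asked whether e[CO2] changed the level of the 200 genes at either stage, or the depth of their fall. The field had blocks of 1 e[CO2] and 1 a[CO2] plot, but which rings formed a block is not given in the labels, so the rings were compared unpaired and a block effect was not removed. By edgeR's quasi-likelihood test, 0 of 200 genes had a fall in VPZ-34A that depended on CO2, and 0 differed between e[CO2] and a[CO2] in VPZ-34A or in WT at either stage. In each of the 5 comparisons 0 of all genes tested were called as well, which is 0% of 34786 genes in VPZ-34A and 0% of 34292 in WT. At an unadjusted p under 0.05 there were 19 genes for the CO2-dependent fall (9.5%, against 4.44% of all genes). For CO2 in VPZ-34A there were 31 at R5–R6 (15.5%, against 11.7%) and 7 at V4–V5 (3.5%, against 3.81%). In WT there were 17 at R5–R6 (8.5%, against 6.66%) and 8 at V4–V5 (4%, against 4.39%). The WT libraries also chose the 200 genes, by means over both CO2 levels. The WT results for CO2, here and below, are therefore not independent of that choice. Limma-voom called 0 in each comparison, and DESeq2 called 5 of the 200 in VPZ-34A at R5–R6 (0.881% of all genes it tested), 2 in WT at R5–R6 (0.117%) and 0 elsewhere. Without ring 7, edgeR's quasi-likelihood test called 8 in VPZ-34A at R5–R6, where 1.14% of all genes were called. The study fitted both lines together within each stage, after removing block effects. It called genes for CO2 and for the interaction of line and CO2. The 0 calls here hold for unpaired tests of 4 rings against 4 within a line, and do not show that CO2 changed no gene.

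The direction at R5–R6 in VPZ-34A was mostly towards e[CO2] but rested on ring 4. There the log2FC of e[CO2] against a[CO2] was above 0 in 131 of the 200 genes and below 0 in 64, with a median of 0.26. Of all genes 47.5% were above 0, with a median of −0.02. Without ring 4, an a[CO2] ring, it was above 0 in 104, with a median of 0.02, and without any other single ring in 119 to 150. In WT at R5–R6, 116 genes were above 0 (median 0.14), where 50.2% of all genes were, and 81 without ring 4 (median −0.11). The fall in VPZ-34A was shallower at e[CO2] in 142 genes, with a median difference of 0.32, and in 115 without ring 4 (median 0.12). Of all genes 46.8% had a difference above 0. For genes without a count at R5–R6 the sign of this difference came from V4–V5 alone. At V4–V5 the log2FC was above 0 in 90 genes in VPZ-34A (median −0.05) and in 108 in WT (median 0.05). Leaving out 1 ring moved these 2 medians between −0.15 and 0.11 in VPZ-34A and between −0.18 and 0.21 in WT.

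The 4 e[CO2] and the 4 a[CO2] libraries were apart in 8 of the 200 genes in VPZ-34A at R5–R6 (5.78% of all genes tested) and in 5 at V4–V5 (3.11%). In WT they were apart in 7 genes at R5–R6 (2.06%) and in 11 at V4–V5 (6.62%). These shares of 2.5% to 5.5% of the 200 were near those of all genes.

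Glyma.06G025100, without annotation, had the lowest p for CO2 in VPZ-34A at R5–R6. It had 0.950, 0.967, 1.26 and 1.12 CPM at e[CO2] (rings 3, 5, 6 and 8), against 0.251, 0.454, 0.554 and 0.463 CPM at a[CO2] (rings 1, 2, 4 and 7). The groups were apart, with a log2FC of 1.21 (standard error 0.25), but the adjusted p was 0.156 in edgeR's quasi-likelihood test and 0.0271 to 0.506 over all settings. Its levels were close to 1 CPM, and at V4–V5 it had 13.4 to 17.8 CPM at e[CO2], against 10.0 to 19.7 CPM at a[CO2]. In WT at R5–R6 the CO2 groups overlapped, with 0.555 to 1.90 CPM at e[CO2] and 0.404 to 1.45 CPM at a[CO2].

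The FLA2-like gene Glyma.02G308700 was next. In VPZ-34A at R5–R6 it had 0.897, 1.14, 1.52 and 1.34 CPM at e[CO2], against 0.0685, 0.113, 0.214 and 0.764 CPM at a[CO2]. The highest a[CO2] library was that of ring 7. The log2FC was 1.84 (standard error 0.48, adjusted p = 0.209), with an adjusted p of 0.0213 without ring 7 and of 0.0109 with DESeq2. The protease gene Glyma.16G018900 had 9.28, 15.5, 17.3 and 21.9 CPM at e[CO2], against 6.76, 8.84, 3.82 and 4.21 CPM at a[CO2], a log2FC of 1.39 (standard error 0.37, adjusted p = 0.210). In WT the log2FC at R5–R6 was 1.35 for Glyma.02G308700 (adjusted p = 0.683) and 0.54 for Glyma.16G018900 (adjusted p = 0.813).

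Glyma.09G036900 was lower at e[CO2]. It is in the study's tables without annotation. In VPZ-34A at R5–R6 it had 3.96, 0.483, 0.223 and 1.02 CPM at e[CO2], against 5.94, 5.75, 9.59 and 1.68 CPM at a[CO2], a log2FC of −2.10 (standard error 0.58, adjusted p = 0.219). At V4–V5 it had 11.7, 9.99, 13.6 and 12.3 CPM at e[CO2], against 26.5, 25.8, 35.3 and 27.4 CPM at a[CO2], and the groups were apart. The adjusted p there was 1, with a log2FC of −1.33 (standard error 0.51). In WT at R5–R6 the libraries had 0.0441, 0, 0 and 0.0739 CPM at e[CO2], against 0.702, 0.595, 1.94 and 0.0580 CPM at a[CO2]. This difference had the lowest p of the 200 in WT (log2FC −4.88, standard error 1.03, adjusted p = 0.496), and 5 of these 8 libraries had fewer than 3 counts. The CO2 groups overlapped there through ring 7. DESeq2 gave an adjusted p of 0.0173 in WT and 0.0370 in VPZ-34A at R5–R6.

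Beside Glyma.09G036900, the gene with the lowest p in WT at R5–R6 was Glyma.11G149100, higher at e[CO2]. It had 0.970, 0.609, 1.24 and 0.278 CPM at e[CO2], against 0.251, 0.149, 0 and 0.116 CPM at a[CO2], a log2FC of 2.77 (standard error 0.61, adjusted p = 0.496 and 0.00349 with DESeq2). In VPZ-34A its log2FC was 1.55 (adjusted p = 0.351). For the CO2-dependent fall in VPZ-34A the lowest p was that of Glyma.09G179900. It had 0.791, 0.338, 0 and 0.326 CPM at e[CO2], against 0.183, 0.170, 0.0158 and 0.0751 CPM at a[CO2] at R5–R6. At V4–V5 it had 10.0, 7.78, 14.1 and 9.42 CPM at e[CO2], against 20.8, 14.6, 19.1 and 20.8 CPM at a[CO2]. The log2FC of the fall differed by 2.92 (standard error 0.84, adjusted p = 0.964), with R5–R6 values near the floor. Glyma.06G025100 followed with 1.04 (adjusted p = 0.964).

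At V4–V5 the lowest p for CO2 was that of Glyma.04G026400 in both lines. In VPZ-34A it had 73.3, 96.2, 11.4 and 15.4 CPM at e[CO2], against 10.8, 16.4, 20.8 and 11.5 CPM at a[CO2], and the difference came from rings 3 and 5 (log2FC 1.67, standard error 0.50, adjusted p = 1). In WT it had 59.0, 49.1, 25.8 and 29.7 CPM at e[CO2], against 7.88, 26.8, 6.24 and 12.8 CPM at a[CO2] (log2FC 1.48, standard error 0.41, adjusted p = 0.993). Rings 3 and 5 were the highest in both lines, and the groups overlapped in both. Glyma.05G203700 in VPZ-34A (log2FC −0.86) and Glyma.09G021100 in WT (−0.95) were next, each with an adjusted p of 0.996 or more.

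**Figure D4:**
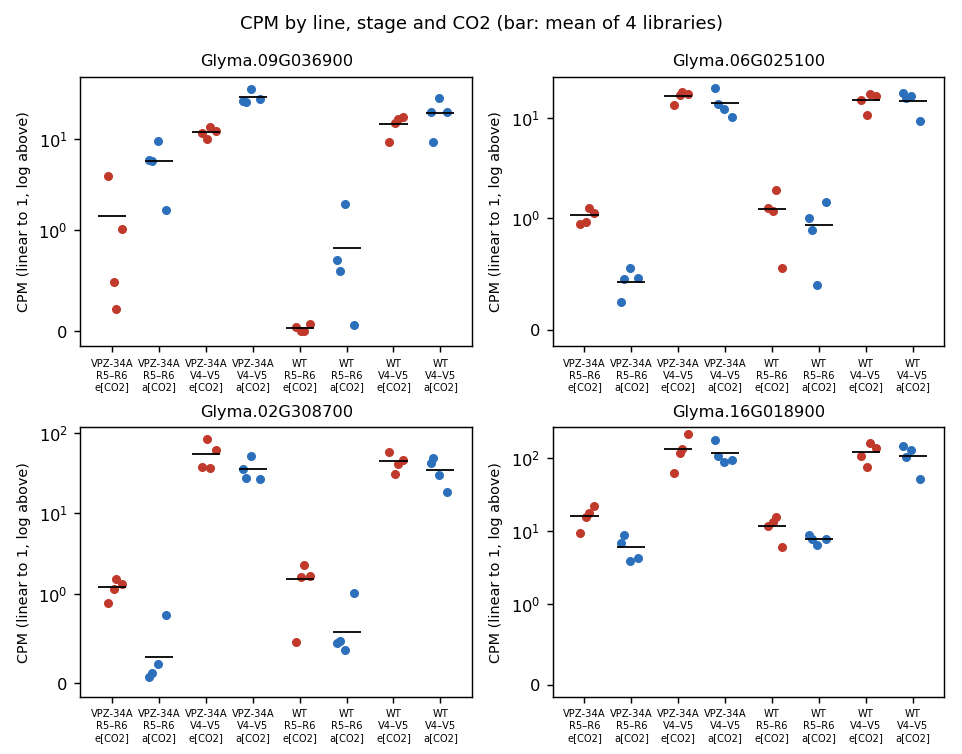
CPM of 4 of the 200 genes in each library by line, stage and CO2, on an axis that is linear up to 1 CPM and logarithmic above, with e[CO2] in red, a[CO2] in blue and the mean of 4 libraries as a bar. In VPZ-34A at R5–R6 the CO2 groups of Glyma.06G025100, Glyma.02G308700 and Glyma.16G018900 are apart, with adjusted p of 0.156 to 0.210, while Glyma.09G036900 overlaps.

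VPZ-34A and WT were set side by side without a test, because the WT values had chosen the genes. On the log2(CPM + 0.5) scale of the means, the ratio of R5–R6 to V4–V5 had a median of −4.31 in VPZ-34A and −4.15 in WT, and it was lower in VPZ-34A in 143 of the 200 genes. At R5–R6, 76 of the 200 means were higher in VPZ-34A (median difference of VPZ-34A and WT −0.06), and at V4–V5 158 were (median difference 0.11). With the WT libraries of rings 5 and 7 left out, 78 of the 200 were higher in VPZ-34A at V4–V5, and with the VPZ-34A libraries of those rings left out 164 were. With both rings left out in both lines, 91 of the 200 were higher in VPZ-34A at V4–V5 (median difference −0.02), and the ratio was lower in VPZ-34A in 109.

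At R5–R6 the lines differed by more than 1 on this scale in 2 of the 200 genes. Glyma.09G036900 had 0.223 to 9.59 CPM in VPZ-34A (median 2.82), against 0 to 1.94 CPM in WT (median 0.0659). Glyma.20G192700 had 0.0792 to 1.15 CPM in VPZ-34A (median 0.546), against 0.0461 to 7.83 CPM in WT (median 2.14), and the lines overlapped in both genes. At V4–V5 no mean differed by more than 1. The gene nearest to it, Glyma.10G209800, had 8.73 to 14.9 CPM in VPZ-34A and 5.48 to 66.1 CPM in WT.

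**Figure D5:**
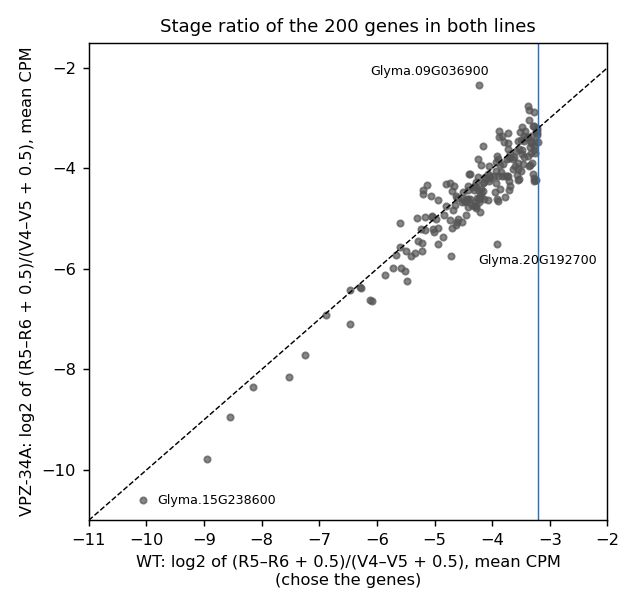
Log2 ratio of the mean R5–R6 CPM to the mean V4–V5 CPM, with 0.5 added to both, in VPZ-34A (vertical axis) against WT (horizontal axis) for the 200 genes. The dashed line marks equal ratios and the vertical line the WT limit of −3.21, and 143 of the 200 points lie below the dashed line.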

How the data were processed

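The deposited table holds estimated counts per gene for 32 leaf libraries. Per the labels and methods, the authors trimmed reads (Trimmomatic 0.39), aligned them with STAR 2.7.10a to a reference made of Wm82.a4.v1 and the 3 transgenes, and counted them with featureCounts (Subread 2.0.4), sharing reads with several alignments as fractions, so that 32.6% of nonzero values were not whole (more than 0.001 from a whole number). No normalisation was applied, and the ComBat-seq step of the authors is not in the table. All columns of the table belonged to a mapped sample (unmapped columns 0).

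Counts were rounded, filtered with filterByExpr, scaled by TMM and entered into edgeR 4.0.16 (R 4.3.3, quasi-likelihood F-test), within each line, with a mean for each of 4 groups of CO2 and stage and Benjamini-Hochberg adjustment over all genes tested. In VPZ-34A the contrasts were R5–R6 against V4–V5, e[CO2] against a[CO2] at each stage and their interaction, and in WT the CO2 contrasts only. Standard errors were derived from the log2FC and the test statistic. They can understate the error where a group had few counts. Printed CPM are on column totals. The stage fit was tested on simulated data.

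The 200 genes and the lists were chosen with earlier results of these data known. Named are the 10 genes with the lowest ratio in WT, the 10 with the lowest log2FC and the 5 with the log2FC nearest 0 in VPZ-34A, the 2 lowest p of each CO2 contrast, 5 genes on each side of the limit, the 10 with the highest V4–V5 level in VPZ-34A, and members of annotated lists. Glyma.16G018900, Glyma.01G170200, Glyma.17G044500 (annotated), Glyma.14G085600, Glyma.15G217100, Glyma.06G084200, Glyma.20G192700, Glyma.10G209800, Glyma.16G165500, Glyma.16G165900, Glyma.15G089100, Glyma.01G018100 and Glyma.08G297000 were named after their values were seen, as were the other genes that DESeq2 or the fit without ring 7 called for CO2. Gene descriptions came from the study's tables, which annotate 752 genes. Keyword lists were applied to these alone, and symbols in the reference matched 0 soybean identifiers.

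The ring numbers of the labels mark the field ring that holds the libraries of both stages. Deviations of the stages within a ring correlated with a median r of 0.057 in VPZ-34A (−0.039 to 0.386) and −0.040 in WT, and the random ring block had an estimated correlation of 0.174 in VPZ-34A and −0.05 in WT. Chi-square per gene between libraries of 1 group was 10.8 to 182 (48 pairs), far above sampling noise, and all 32 were kept as separate samples. Labels do not tell whether pooled plants differ between libraries of a ring, and p-values measure the spread between these plots. The alternatives tried were DESeq2 1.42.0, limma-voom (limma 3.58.1), RLE scaling, 2 other filters, unrounded counts, all libraries in 1 fit, a replicate block for the ring (fixed or random), each ring left out, and other selection settings. Leaving out rings for the line values was added after seeing the data.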

Additional observations from a re-analysis of the deposited data

Results flagged for a closer look

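In 64 groups of 4 libraries (the summed level and 7 genes printed per library), 5 had a library whose gap to the nearest other exceeded Dixon's limit of 0.829 of the range. Chance flags about 1 in 20 groups of normally distributed values, and this rate does not hold for groups of 0s and a single count. The summed level in WT at R5–R6 and e[CO2] was 444 CPM in ring 8, against 788 to 848 CPM in the other rings. Glyma.09G036900 in VPZ-34A at V4–V5 and a[CO2] had 35.3 CPM in ring 4, against 25.8 to 27.4 CPM. Glyma.02G308700 in WT at R5–R6 and a[CO2] had 1.01 CPM in ring 7, against 0.369 to 0.471 CPM. Glyma.04G026400 in VPZ-34A at R5–R6 had a single count in ring 5 at e[CO2] (0.0483 CPM) and in ring 1 at a[CO2] (0.0457 CPM), and none in the other libraries.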

How the results depend on the processing

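The number of the 200 genes called lower in VPZ-34A was 200 with limma-voom, DESeq2, RLE size factors, no filter, unrounded counts, all 32 libraries in 1 fit, a replicate block for the ring (fixed or random) and each ring left out (200 to 200), 200 in the e[CO2] rings and 199 in the a[CO2] rings, where Glyma.06G084200 (log2FC −2.78) was also lower but not past the threshold. A filter for 10 counts in every library left 80 genes, and 80 were called lower. That filter removes genes by their low R5–R6 counts. For CO2 at R5–R6 DESeq2 called 5 in VPZ-34A (0.881% of all genes; Glyma.02G308700, Glyma.06G025100, Glyma.13G090600 and Glyma.16G018900 higher at e[CO2], Glyma.09G036900 lower) and 2 in WT (0.117% of all genes). Leaving out a ring gave 0 to 8 in VPZ-34A, with the 8 without ring 7 (1.14% of all genes; Glyma.04G065600, Glyma.02G308700, Glyma.20G192700, Glyma.20G051900, Glyma.14G085600, Glyma.06G084200 and Glyma.06G025100 higher, Glyma.09G036900 lower), and the cause was not tested. The replicate block for the ring (estimated correlation 0.174 in VPZ-34A as a random block) changed no call of the 200. A minimum of 20 CPM in the selection kept 123 of the 200, those with a WT mean of 20 CPM or more at V4–V5. That number follows from the rule itself. The other settings kept 157 to 193, and leaving out a ring kept 188 to 195. At V4–V5, 158 genes had the higher mean in VPZ-34A, 132 to 170 with 1 ring left out, 91 without rings 5 and 7, 78 without the WT libraries of those rings and 164 without the VPZ-34A libraries of them. In the shallowest library 3 counts were 0.186 CPM, which limits the many R5–R6 values near or under it.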
